A study of Mus musculus with 5 samples.

Results

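Dcx, Map2, Mapt, Stmn2, Gap43, Ncam1, Syp, Syn1, Snap25 and Rbfox3 are 10 genes whose products are commonly used to recognise neurons, and they were picked by name from the 25414 mouse genes in the expression files. Their mRNA was followed in 2 cultured mouse cell types by RNA sequencing. The neural stem cells (NSCs) were primary cells from midgestation embryonic cortex at passages 5 to 8, grown as a monolayer on poly-ornithine and laminin in Neural basal medium with the growth factors EGF and bFGF, heparin and B27 (n = 2 samples). STO cells, a line derived from SIM mouse embryonic fibroblasts and kept for more than 30 passages in DMEM with fetal bovine serum, were the second group (n = 3 samples). The labels give the strain C57BL/6 for both, and they name no genetic change or drug treatment for either. The paper, however, describes STO cells as of SIM mouse embryo origin and resistant to thioguanine and ouabain. The labels do not say whether samples of a cell type were separate cultures, so the p-values measure the spread between these samples, which may be technical. The 2 cell types also differ in medium, substrate, passage number and drug resistance, and possibly in strain, and these cannot be told apart from cell type.

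Neuronal differentiation carries a dividing neural progenitor through exit from the cell cycle, outgrowth of an axon and dendrites, and assembly of synapses. The 10 genes fall along that path. The microtubule-associated proteins doublecortin (Dcx), MAP2 (Map2) and tau (Mapt) and the microtubule-destabilising stathmin SCG10 (Stmn2) shape the growing neurite. GAP-43 (Gap43) is a membrane-associated phosphoprotein of the growth cone, and NCAM1 (Ncam1) is an immunoglobulin-family adhesion molecule of neural cells that other tissues also make. Synaptophysin (Syp) and synapsin I (Syn1) belong to the synaptic vesicle, SNAP-25 (Snap25) is the plasma membrane SNARE of vesicle fusion, and Rbfox3 encodes NeuN, a splicing factor of mature neuronal nuclei. The growth factors in the NSC medium hold such cells in division, and the comparison asked how much mRNA of these genes a proliferating NSC culture held beside a fibroblast line.

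Levels are FPKM, the sequenced fragments of a transcript corrected for its length and for the depth of the sample, and the FPKM of a gene is the sum over its RefSeq transcripts (32 of 40201 transcripts for the 10 genes). Differences are NSC minus STO in log2(FPKM + 1), each with its standard error and the limma p-value adjusted over all genes tested. The added 1 compresses the differences of genes near or under 1 FPKM. The confidence limits deposited with the FPKM values implied totals of 20587283 and 22271895 fragments for the NSC samples and of 15223341 to 21952753 for the STO samples, and limits of this kind cover counting error only. Samples of a cell type had Pearson correlations of 0.994 to 0.995 across 11712 genes, which are not independent replicates. The summed level of 9 neural stem cell markers ran from 3852 to 4068 FPKM in NSCs and from 0.399 to 0.517 FPKM in STO cells, with Sox2, Pax6, Olig2 and Fabp7 listed at 0 there, and that of 10 fibroblast markers from 59.4 to 59.8 FPKM in NSCs and from 1921 to 2014 FPKM in STO cells. Fabp7 alone, at 2783 and 3041 FPKM, made up most of the stem cell marker sum in NSCs. Fbln2 alone, at 55.4 and 55.1 FPKM, made up most of the fibroblast marker sum there. Of 78 ribosomal protein genes, 5 were at 0 in some sample and 3 in all samples, and whether these were failed estimates was not tested. No transcript of the 10 genes was flagged as failed by the quantification program in these samples. A value of 0 may still not mean absence, so such genes are described as listed at 0.

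In NSCs the 10 genes spanned from 362 FPKM for Gap43 down to 0.061 FPKM for Stmn2, and every one of them was listed above 0 in both NSC samples. The order of the NSC means was Gap43, Map2, Ncam1, Mapt, Syn1, Syp, Dcx, Snap25, Rbfox3, Stmn2, and no gene overlapped its neighbour in that order. In STO cells only Ncam1 and Map2 stood above 1 FPKM, followed by Mapt and Gap43, whose ranges overlapped, and by Syp. Dcx was at 0 in 2 of the 3 STO samples, and Syn1, Snap25, Rbfox3 and Stmn2 were listed at 0 in all 3. The summed level of the 10 genes was 605 and 599 FPKM in the NSC samples and 18.4, 18.9 and 17.6 FPKM in the STO samples. Gap43 made up 59.8% and 60.1% of that sum in NSCs, and Ncam1 made up 67.9% to 69.6% of it in STO cells. In bulk RNA a low level in all cells and a high level in a few cells cannot be told apart.

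**Figure D1:**
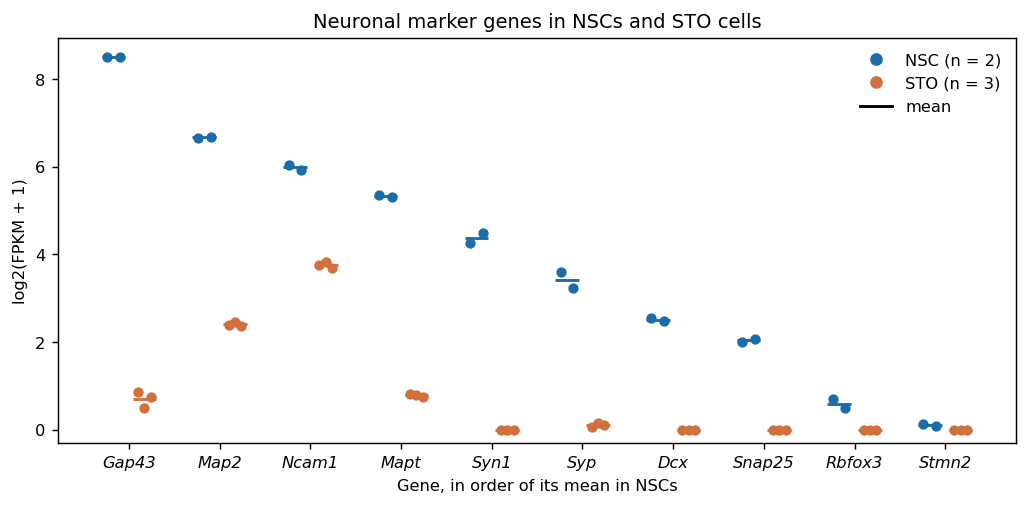
Level of each of the 10 neuronal marker genes as log2(FPKM + 1) in the 2 NSC samples and the 3 STO samples, with a point per sample and a line at the group mean. The genes are ordered by their NSC mean, from Gap43 at 361 FPKM to Stmn2 at 0.081 FPKM. The samples of the 2 cell types do not overlap for any gene shown, and the share of all genes without overlap was not counted.

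Samples of the 2 cell types did not overlap for any of the 10 genes, with NSCs the higher group each time. The share of all genes that separated in this way was not counted, so the separation is not read as particular to the 10. For Stmn2 it rested on 6 and 4 implied fragments in NSCs. Of the 10, 8 reached a mean of 1 FPKM in a cell type and entered the test. Map2 and Ncam1 reached it in both cell types, whereas Gap43, Mapt, Syn1, Syp, Dcx and Snap25 reached it through NSCs alone, so that their entry into the test already required a higher NSC level. The 8 were higher in NSCs at an adjusted p under 0.05, a call that 43.7% of the 12292 genes tested also received, while 41.9% were lower and 85.6% were called in either direction. A call of higher in NSCs was thus common among the genes tested.

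Among the growth cone and adhesion genes, Gap43 had the highest level and the widest difference of the 8. It stood at 362 and 360.0 FPKM in NSCs, above 99.3% of genes, and at 0.818, 0.416 and 0.693 FPKM in STO cells, where the deposited confidence limits implied 23.7, 14 and 31 fragments. The mean of 361 FPKM ± 1.16 (SD, n = 2) was 562 times the STO mean of 0.642 FPKM ± 0.205 (SD, n = 3), with pairs of samples giving ratios from 440 to 869. The log2 difference was 7.79 ± 0.11 (adjusted p = 1.3e-08 by limma). The 2 NSC samples nearly coincided, and the STO values rested on few fragments. Gap43 has 1 RefSeq transcript in the files, on chromosome 16 at 42248674-42340764 (mm9, minus strand).

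Ncam1 had the highest STO level of the 10 genes. It was at 65.0 and 60.3 FPKM in NSCs and at 12.5, 13.1 and 12 FPKM in STO cells. The NSC mean was 5.00 times the STO mean, the smallest ratio among the 5 genes above 0 in all STO samples, and the log2 difference was 2.23 ± 0.06 (adjusted p = 2.4e-07 by limma). The 2 groups lay far apart relative to the spread within each. The gene lies on chromosome 9 at 49310234-49607498 (mm9, minus strand).

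Of the microtubule genes, Map2, which stabilises dendritic microtubules, was the most abundant. Its level was 100.4 and 102 FPKM in NSCs and 4.26, 4.48 and 4.19 FPKM in STO cells (chromosome 1 at 66221903-66489157, mm9, plus strand). The NSC mean was 23.5 times the STO mean, with a log2 difference of 4.27 ± 0.05 (adjusted p = 8.1e-09 by limma), and samples of a cell type scarcely differed. Mapt, encoding the axonal protein tau, was at 39.8 and 38.8 FPKM in NSCs and at 0.758, 0.739 and 0.696 FPKM in STO cells (chromosome 11 at 104092750-104193403, plus strand). Its log2 difference was 4.54 ± 0.05 (adjusted p = 6.7e-09 by limma), and the NSC mean was 53.8 times that of STO cells.

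The 2 genes used as early markers of new neurons were at much lower levels. Dcx, found in migrating and newly born neurons, was at 4.87 and 4.56 FPKM in NSCs and was listed at 0, 0 and 0.0032 FPKM in STO cells (chromosome X at 140290385-140367762, minus strand). Its log2 difference was 2.51 ± 0.05 (adjusted p = 3.4e-08 by limma). Stmn2, expressed early in neurite outgrowth, was at 0.100 and 0.061 FPKM in NSCs, which corresponded to 6 and 4 implied fragments, and was listed at 0 in the 3 STO samples (chromosome 3 at 8509527-8561604, plus strand). With so few fragments the deposited confidence limits of Stmn2 in the second NSC sample reached down to 0, and the gene did not enter the test. Without the filter on low values its log2 difference was 0.11 ± 0.02 (adjusted p = 0.0050 by limma, where 37% of 17724 genes were called higher and 33.4% lower).

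Levels in NSCs did not follow the label of differentiation markers evenly. Gap43, Map2, Ncam1 and Mapt stood at 38.8 FPKM or more in both NSC samples, whereas Stmn2 and Rbfox3 stayed under 1 FPKM in both NSC samples. Nes, encoding the progenitor intermediate filament nestin, was at 36.2 and 37.1 times the level of Dcx in the 2 NSC samples. At 176 and 169 FPKM there, Nes lay above Map2 (100.4 and 102 FPKM) and below Gap43 (362 and 360.0 FPKM).

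Of the synaptic genes, Syn1 and Syp lay between Mapt and Dcx in the order of NSC means, and Snap25 lay below Dcx. Syn1, which tethers synaptic vesicles, was at 18.1 and 21.4 FPKM in NSCs and was listed at 0 in the 3 STO samples, with a log2 difference of 4.37 ± 0.08 (adjusted p = 2.7e-08 by limma). Syp, an integral protein of the vesicle membrane, was at 11.1 and 8.36 FPKM in NSCs and at 0.054, 0.109 and 0.082 FPKM in STO cells, the latter from 3, 7 and 7 implied fragments. Its log2 difference was 3.30 ± 0.11 (adjusted p = 4.9e-07 by limma). The NSC samples of Syp differed from each other, and both stayed far above the STO samples. Snap25 was at 3.03 and 3.22 FPKM in NSCs and listed at 0 in STO cells, with a log2 difference of 2.04 ± 0.04 (adjusted p = 6.5e-08 by limma). In mm9, Syn1 lies on chromosome X at 20437637-20498044 (minus strand), Syp on chromosome X at 7215706-7230382 (plus strand) and Snap25 on chromosome 2 at 136539186-136608164 (plus strand).

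Rbfox3, the only nuclear marker of the set, was at 0.624 and 0.405 FPKM in NSCs and was listed at 0 in the 3 STO samples (chromosome 11 at 118351074-118772911, minus strand). Neither NSC sample reached 1 FPKM, and the gene did not enter the test. Without the filter its log2 difference was 0.60 ± 0.06 (adjusted p = 0.00045 by limma).

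The Syn1 gene shares its locus with a gene of high level in the other cell type. Timp1, a secreted inhibitor of metalloproteinases, lies inside the Syn1 locus on the opposite strand and was at 37.2 and 33.5 FPKM in NSCs and 254, 237 and 274 FPKM in STO cells. Syn1 was nevertheless listed at 0 in the STO samples. The libraries came from a stranded kit, and whether the counting used strand is not given in the sources used here. Araf, on the same strand as Timp1, overlaps the end of Syn1 and was at 44.5 and 48.3 FPKM in NSCs and 29.4 to 31.5 FPKM in STO cells.

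Promoter sequence is shown for Syn1 and Map2 because these were the windows of the 10 genes that held letters of the RE1 element, the site at which the repressor REST binds many neuronal genes in cells that are not neurons. RefSeq windows of 300 bases (GRCm38.p6), from 250 before to 50 after a start, were matched for 5 of the 10 genes (Map2, Rbfox3, Syp, Syn1 and Dcx, the last with 2 windows). Both strands were searched for CAGCACC and GGACAG, the left and right parts of the element, which do not overlap each other. Capitals in the stretches below mark the matches and, in Syn1, also 2 spacer bases and an inexact right part that follow the first CAGCACC. The stretches run from 250 to 131 bases before the start on the strand of the gene. The Syn1 stretch is chrX:20921049-20921168 (minus strand) and the Map2 stretch is chr1:66175079-66175198 (plus strand).
Syn1: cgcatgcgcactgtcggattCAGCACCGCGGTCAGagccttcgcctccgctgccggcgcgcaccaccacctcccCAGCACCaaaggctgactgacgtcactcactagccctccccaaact
Map2: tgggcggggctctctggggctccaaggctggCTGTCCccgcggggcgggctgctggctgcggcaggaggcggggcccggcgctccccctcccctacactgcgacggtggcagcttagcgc

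The Syn1 window held CAGCACC at 2 places, a motif present in 7.14% of the 32851 windows of the table. The first of them, 230 bases before the start, was followed after 2 bases by the right part of the element with 1 mismatch, and that arrangement with at most 1 mismatch occurred in 0.186% of windows. The mismatch allowance was chosen after the sequences were seen. The Map2 window held GGACAG on the opposite strand, as do 22.2% of windows, and no CAGCACC. Neither was in the Rbfox3, Syp or Dcx windows, and the E-box CAGCTG, present in 16.3% of windows, was in none of the windows of the 5 genes. The Map2 and Syn1 windows had GC contents of 77.7% and 68.3%, and those of Dcx 43.0% and 44.7%, around a median of 52.7% over the table.

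Rest itself, the gene of the repressor, was at 5.62 and 6.01 FPKM in NSCs and at 15.8, 15.6 and 11.5 FPKM in STO cells, without overlap. Its log2 difference was -1.15 ± 0.14 (adjusted p = 0.00028 by limma). Of 8 genes of the REST complex, 3 were higher in NSCs, 4 were lower and 1 did not pass, with a median log2 difference of -0.48 beside 0.02 over all genes tested. Rcor1, a corepressor of REST, was lower in NSCs (9.72 and 10.7 FPKM against 23.0, 23.7 and 23.5 FPKM), and its relative Rcor2 was higher (37.3 and 35.5 FPKM against 11.7, 10.8 and 11 FPKM). A part of REST in the levels of the 10 genes was not tested.

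The transcripts of a gene were not shared out alike in the 2 cell types. Of the 32 RefSeq transcripts, 17 were above 0 in both NSC samples, 18 were at 0 in all STO samples and 9 were at 0 in all 5 samples. The 18 include every transcript of Syn1, Snap25, Rbfox3 and Stmn2, genes listed at 0 in STO cells as a whole. From 38.8% to 42.5% of all genes were at 0 in a sample, and the shares over all transcripts were not counted. Such divisions are estimates of the quantification program from shared exons, and they are described here without a test.

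For Map2, transcript NM_008632 was at 32.2 and 33.6 FPKM in NSCs and listed at 0 in the 3 STO samples. Transcript NM_001039934 was at 41.9 and 41.7 FPKM in NSCs and 3.70, 3.93 and 3.72 FPKM in STO cells. It thus held 41.7% and 40.9% of the Map2 level in the NSC samples and 86.9% to 88.8% in the STO samples. For Ncam1, transcript NM_010875 was at 37.9 and 38.4 FPKM in NSCs and 2.10, 2.05 and 3.00 FPKM in STO cells. Transcript NM_001081445 was at 20.4 and 13.1 FPKM in NSCs and 8.58, 9.26 and 8.97 FPKM in STO cells. The leading Ncam1 transcript therefore differed, with NM_010875 at 58.3% and 63.8% of the gene in NSCs and NM_001081445 at 68.8% to 75% in STO cells.

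For Mapt, NM_010838 was at 28.2 and 27.3 FPKM in NSCs, 70.9% and 70.4% of the gene, and was listed at 0 in STO cells. The low STO level of Mapt was spread over NM_001038609, NM_001285455 and NM_001285456 in shares that changed from sample to sample. Snap25 rested on a single transcript of 5, NM_001291056, in NSCs. The Dcx level was steady between the NSC samples while its division was not, with NM_001110223 at 2.16 and 0.789 FPKM and NM_001110224 at 2.01 and 3.77 FPKM. Only NM_001024931 of the 6 Rbfox3 transcripts was listed above 0 in both NSC samples, at 0.410 and 0.405 FPKM, and the higher Rbfox3 sum of the first sample came from transcripts at 0 in the second.

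**Figure D2:**
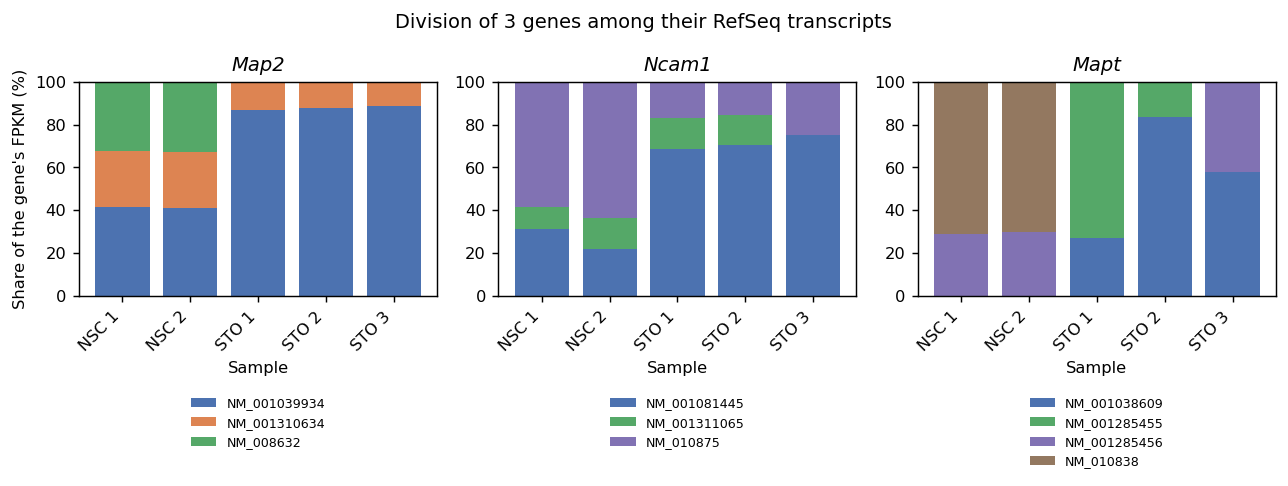
Share of the summed FPKM (%) of Map2, Ncam1 and Mapt held by each RefSeq transcript in each of the 5 samples, as stacked bars that reach 100%. NM_008632 of Map2 is present in the NSC bars alone, at 32.1% and 33%, and the largest Ncam1 segment changes from NM_010875 in NSCs to NM_001081445 in STO cells.

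In the stathmin family, Stmn2 was the lowest member in NSCs. Stmn1, the stathmin of dividing cells, was at 214 and 201 FPKM in NSCs and 81.2 to 94.9 FPKM in STO cells, which is 2140 and 3292 times Stmn2 in the NSC samples. Stmn3 and Stmn4, both neural stathmins, were at means of 73.3 and 21.4 FPKM in NSCs and of 0.041 and 0.177 FPKM in STO cells. The log2 differences of Stmn1, Stmn3 and Stmn4 were 1.23 ± 0.08, 6.15 ± 0.06 and 4.25 ± 0.08, each higher in NSCs.

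In the doublecortin family, the kinases Dclk1 and Dclk2 exceeded Dcx in NSCs, at means of 67.9 and 48.7 FPKM, and both were also at 9.39 FPKM or more in STO cells. Dclk2 was higher in NSCs (log2 difference 2.18 ± 0.07). Dclk1 was higher by the sum over its transcripts (0.70 ± 0.07), and the direction turned when its highest transcript stood for the gene (-1.37). Map4, the microtubule-associated protein of dividing cells, was at 1.37 and 1.39 times Map2 in the NSC samples and at 21.3 to 22.4 times Map2 in the STO samples. Its log2 difference of 0.56 ± 0.06 also turned with the highest transcript (-1.0). Map1b, a microtubule-associated protein of growing axons, was at 40.5 and 45 FPKM in NSCs and 7.88, 8.94 and 7.44 FPKM in STO cells (log2 difference 2.27 ± 0.09), while Map1a, its adult counterpart, was at means of 21.4 and 14.7 FPKM (0.52 ± 0.11), a call lost without the second NSC sample (adjusted p = 0.080 by limma). Map6 was at means of 24.6 and 19.5 FPKM (0.32 ± 0.05), and its direction turned with the highest transcript (-0.26). Tubb3, the neuronal beta-tubulin, did not pass the test (9.25 and 8.14 FPKM in NSCs against 8.57, 7.84 and 8.49 FPKM in STO cells, adjusted p = 0.48 by limma), and its samples overlapped between the cell types.

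Basp1 and Marcks, which share with Gap43 the binding of membrane phosphoinositides, were high in both cell types. Basp1 was at 459.5 and 479 FPKM in NSCs and 134, 128 and 132 FPKM in STO cells. It thus stood at 1.27 and 1.33 times Gap43 in the NSC samples and 164 to 308 times Gap43 in the STO samples. Ncam2, the paralog of Ncam1, was at 8.46 and 8.97 FPKM in NSCs and near 0 in STO cells, and the adhesion gene L1cam was at most 0.088 FPKM in the 5 samples.

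The synapsins were listed above 0 in NSCs alone. Syn2 was at 13.5 and 14.9 FPKM and Syn3 at 1.42 and 1.67 FPKM in NSCs, and both, with Syn1, were listed at 0 in the 3 STO samples. In the synaptophysin family, Sypl was lower in NSCs (8.12 and 9.02 FPKM against 24.7, 25.1 and 23.1 FPKM), opposite to Syp, with a log2 difference of -1.41 ± 0.07. Synpr, encoding synaptoporin, was at 2.19 and 2.46 FPKM in NSCs and at most 0.046 FPKM in STO cells. The SNAREs that serve general membrane traffic, Snap23 and Snap29, were at means of 13.7 and 11.3 FPKM in NSCs and 13.3 and 10.9 FPKM in STO cells, and neither passed the test. Leaving out the first or the second NSC sample brought Snap23 past the threshold in opposite directions (log2 differences of 0.20 and -0.14). Snap23 was at 3.97 and 4.79 times Snap25 in the NSC samples. In the Rbfox family, Rbfox2 was lower in NSCs (13.5 and 12.5 FPKM against 37.5, 36.5 and 32.6 FPKM) and was at 21.6 and 30.8 times Rbfox3 in the NSC samples, while Rbfox1 was at 0.250 and 0.207 FPKM in NSCs and listed at 0 in STO cells.

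**Figure D3:**
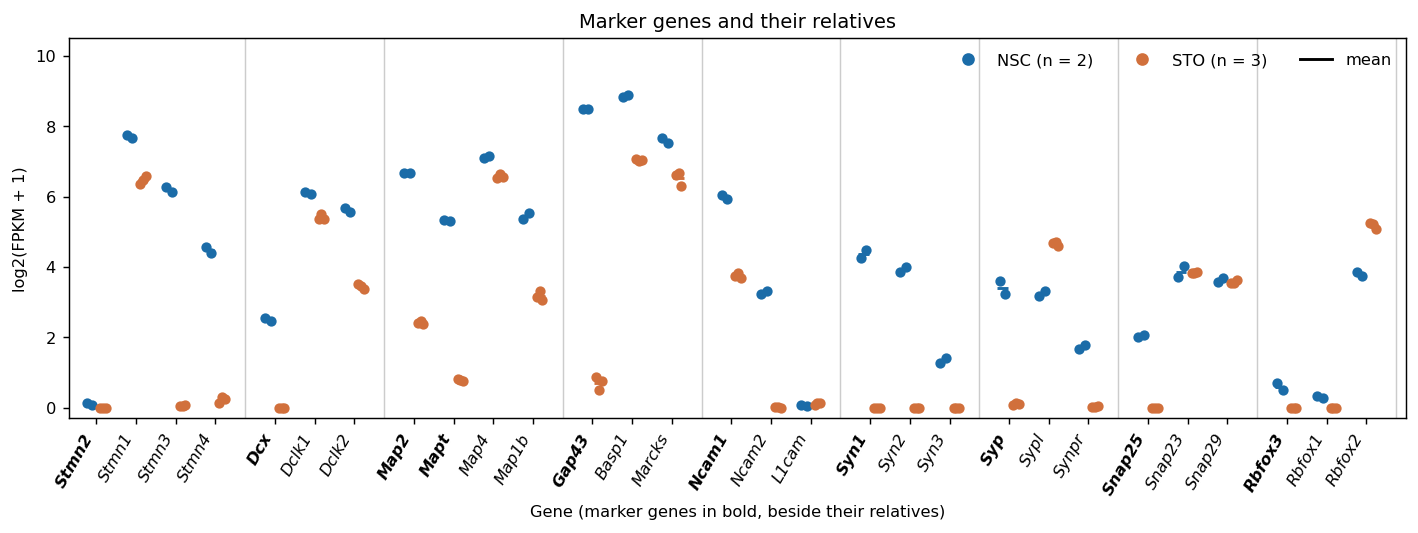
Level as log2(FPKM + 1) of the neuronal marker genes, in bold, and their relatives in the 2 NSC samples and the 3 STO samples, with a point per sample and a line at the group mean. Stmn1, Basp1, Map4 and Snap23 are present in both cell types, while Stmn2, Gap43 and Snap25 are near 0 in STO cells, and Sypl and Rbfox2 are lower in NSCs.

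Wider lists of neuronal genes were set beside the 10. Of 30 genes of the presynaptic machinery, 27 were tested, of which 20 were higher in NSCs, 3 were lower and 4 did not pass, with a median log2 difference of 1.63 beside 0.02 over all genes tested. Of the 27, 16 reached a mean of 1 FPKM in STO cells and the others entered the test through NSCs alone. Part of the calls of higher and of the median was thus set by entry. The vesicle protein gene Syt11 was at 156 and 159 FPKM in NSCs and 1.79, 1.86 and 1.49 FPKM in STO cells, and Cplx2, encoding the fusion clamp complexin 2, at 60.9 and 65.1 FPKM against 2.05, 2.02 and 1.73 FPKM. Vamp2, the vesicle SNARE that pairs with SNAP-25, was at 46.9 and 52.1 FPKM in NSCs and 14.3, 14.5 and 13.7 FPKM in STO cells. Stx1a, Napa and Sypl were the lower genes. Nsf, the ATPase that recycles SNARE complexes in all cells, did not pass the test (19.4 and 20 FPKM against 20, 20.7 and 21.9 FPKM). Stx1a, a plasma membrane syntaxin that pairs with SNAP-25, was at 2.34 and 2.28 FPKM in NSCs and 6.63, 4.79 and 5.84 FPKM in STO cells.

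Of 26 neuronal cytoskeleton genes, 24 were tested, of which 21 were higher, 1 was lower and 2 did not pass, with a median log2 difference of 1.5. Of the 24, 15 reached a mean of 1 FPKM in STO cells and the others entered through NSCs alone. With the highest transcript of each gene in place of the sum, 17 of the 24 were higher and 4 lower. The lower gene was Nefl, the neurofilament light chain, at 0.763 and 0.609 FPKM in NSCs and 17.9, 19.5 and 21.2 FPKM in STO cells (log2 difference -3.60 ± 0.08). Of 15 neural adhesion genes, 12 were tested. Of these, Nlgn2 reached a mean of 1 FPKM in STO cells and the other 11 entered the test through NSCs alone, so that the 12 calls of higher in NSCs were largely set by entry. Cntn1, a contactin of axons and glia, was at 106 and 117 FPKM in NSCs and listed at 0 in STO cells. Of the neuroligin genes, Nlgn3 was at 35 and 37.2 FPKM in NSCs against 0.068, 0.110 and 0.075 FPKM in STO cells, and Nlgn2 at 34.5 and 32.9 FPKM against 27.5, 24.6 and 22.8 FPKM, a call lost without the first NSC sample (adjusted p = 0.060 by limma). Of 16 postsynaptic scaffold genes, 14 were tested, of which 11 were higher and 3 lower, with a median of 1.56. Only 8 of the 14 reached a mean of 1 FPKM in STO cells, and the others entered through NSCs alone. Camk2b, a calcium-dependent kinase subunit, was at 175 and 169.8 FPKM in NSCs and 0.254, 0.135 and 0.204 FPKM in STO cells. Dlg4, the gene of the scaffold PSD-95, was at 49.3 and 44.5 FPKM against 16.6, 16.1 and 15.9 FPKM, and its relative Dlg1, of broader expression, was lower in NSCs at 16.5 and 16 FPKM against 24.3, 26 and 26.4 FPKM. Of 9 neuronal RNA-binding protein genes, 8 were tested, of which 5 were higher and 3 lower. A mean of 1 FPKM in STO cells was reached by 5 of the 8, and the others entered through NSCs alone. Elavl3 and Elavl4, which encode the neuronal Hu proteins, were at means of 24.1 and 18.2 FPKM in NSCs, with Elavl4 listed at 0 in STO cells, while Elavl2 was at means of 5.90 and 5.14 FPKM (adjusted p = 0.042 by limma) and lost its call without either NSC sample (adjusted p = 0.075 without the first and 0.178 without the second) or without the first (0.074) or the third (0.107) STO sample. Its direction turned with the highest transcript (-0.39).

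The neuronal transcription factor and transmitter genes differed from these lists in level. Of 21 genes, 7 were tested, 4 higher and 3 lower, and the median NSC level of the 21 was 0.068 FPKM. The 4 reached a mean of 1 FPKM in NSCs alone and the 3 in STO cells alone, so that these calls were largely set by entry. Myt1, a zinc finger factor, was at 17.3 and 17.4 FPKM in NSCs, and Gad1, a synthetic enzyme of GABA, at 7.37 and 7.72 FPKM. Neurod1, Neurog2, Tbr1 and Eomes, factors of cortical neurogenesis, each stayed under 1 FPKM in NSCs and in STO cells. Dlx1 and Dlx2 were among the lower genes, and Dlx2 was at 0.180 and 0.282 FPKM in NSCs and 21.8, 19.4 and 19.4 FPKM in STO cells.

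**Figure D4:**
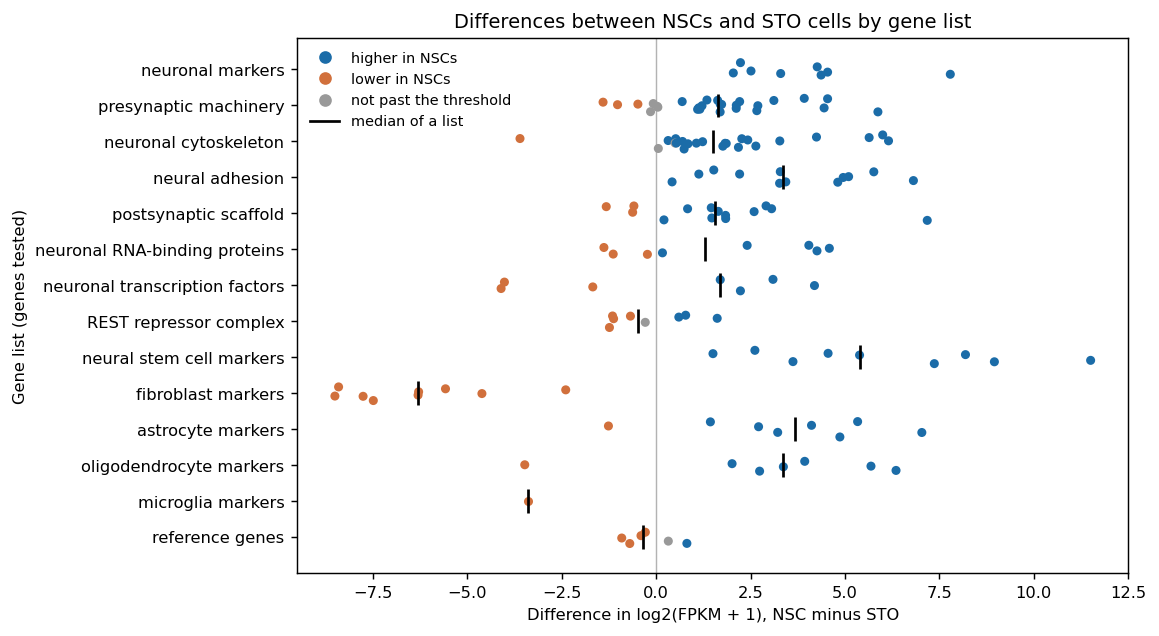
Difference in log2(FPKM + 1), NSC minus STO, of each gene tested in the neuronal marker set and in wider gene lists, with a point per gene coloured by its call and a black line at the median of each wider list. The medians were 1.63 for presynaptic machinery and 1.56 for postsynaptic scaffold, against 0.02 over all 12292 genes tested. In these 2 lists 16 of 27 and 8 of 14 genes tested reached a mean of 1 FPKM in STO cells. The others entered through NSCs alone, which set part of both medians. Lists whose genes mostly reached 1 FPKM in 1 cell type alone, such as neural adhesion, lie on that side by entry.

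Markers of other cells that cortical cultures can hold were also measured. Of 8 astrocyte markers 7 were higher and 1 was lower in NSCs, with sums of 506 to 516 FPKM against 50.9 to 55.9 FPKM, and Gfap was at 15.9 and 16.9 FPKM in NSCs. Of the 8, 2 reached a mean of 1 FPKM in STO cells. Of 7 oligodendrocyte markers tested 6 were higher and 1, Pdgfra, was lower, with sums of all 8 listed of 283 to 286 FPKM in NSCs and 346 to 357 FPKM in STO cells. Of the 7, 2 reached a mean of 1 FPKM in STO cells and the others entered the test through NSCs alone. Pdgfra, which mesenchymal cells also express, was at 30.4 and 30.1 FPKM in NSCs and 344, 355 and 344 FPKM in STO cells, and Mbp was at 83.4 and 88.3 FPKM in NSCs. The 6 microglia markers summed to 0.295 to 0.434 FPKM in NSCs, with Aif1, Cx3cr1 and Itgam listed at 0, and to 9.75 to 10.1 FPKM in STO cells. The 1 tested, Tmem119, entered through STO cells alone and was lower in NSCs, at 0.015 and 0 FPKM against 9.49, 9.89 and 9.60 FPKM. Of 6 reference genes, 1 was higher, 4 were lower and 1 did not pass. The part of glial cells in the levels of the 10 genes was not tested.

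For the 3 genes highest in NSCs, the nearest profiles were sought as the smallest Euclidean distance in log2(FPKM + 1) over the 5 samples. Gap43 was closest to Nnat (distance 0.30), which was at 399 and 382 FPKM in NSCs and 0.630 to 0.648 FPKM in STO cells. Map2 was closest to Lfng (0.53), Inka2 (0.56) and S100a16 (0.73). Ncam1 was closest to Cdkn2b (0.27), Sbk1 (0.31) and Mrps33 (0.34).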

How the data were processed

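RNA was extracted with Trizol and libraries were made with the KAPA stranded mRNA kit. The authors aligned reads to mm9 with HISAT2 (given as version 4.8.2) and deposited FPKM values per RefSeq transcript from Cufflinks 2.2.1, with confidence limits and no counts. Fragments were implied from those limits. Transcripts were paired with symbols through a RefSeq gene table (GRCm38.p6, names only; 39951 of 40201 transcripts matched), summed per gene and taken as log2(FPKM + 1). Genes with a mean of at least 1 FPKM in either cell type (12292) were fitted with limma 3.58.1 (R 4.3.3; NSC against STO, trended variance, Benjamini-Hochberg threshold 0.05), after the step was tested on simulated data. Loci are those of the files, 1-based in mm9. The neuronal genes and the wider lists were chosen with earlier results of these data known, and they support nothing independently. Genes of a list were named as the 3 highest in each cell type, together with relatives of the 10 genes, and others in the text, such as Nefl, Rcor1, Tbr1 and Timp1, were chosen after their values were seen. Alternatives covered the pseudocount, filters, scaling, variance model, replicate block, transcript choice and each replicate left out.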

Additional observations from a re-analysis of the deposited data

How the results depend on the processing

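The 8 marker genes tested kept their direction and their side of the threshold under each of 13 alternatives. Gap43, Mapt, Syn1, Syp, Dcx and Snap25 had entered the test through NSCs alone, so their direction was largely set by entry. Without the filter on low values Rbfox3 and Stmn2 were also called, which made 10. In that fit 37% of 17724 genes were called higher and 33.4% lower. The log2 differences ranged from 7.43 to 8.97 for Gap43, 3.16 to 4.52 for Map2 and 2.18 to 3.54 for Ncam1. For Syn1 it was 7.63 with a pseudocount of 0.1 and 3.47 with the highest transcript, against 4.37. With a log2 difference of at least 1 required as well, 2617 genes were higher and 2103 lower in NSCs. Scaling alternatives moved the median of all genes to between -0.04 and 0.07. Same-numbered NSC and STO samples had deviation correlations of 0.011 and 0.060. With 2 NSC samples the deviations of 1 mirror those of the other, so these values cannot decide whether the numbers pair the samples. Nothing in the labels or methods pairs them, and the main fit had no replicate block. With the replicate block, in which the third STO sample no longer informs the contrast, 5252 genes were higher and 4994 lower, and the 8 marker genes stayed higher. Leaving out each replicate in turn gave 4900 to 5253 higher and 4704 to 5065 lower genes. With 1 NSC sample left, that sample was assumed to vary like the STO samples. With 2 and 3 samples a group, levels of a few fragments, as for Stmn2 and for Syp in STO cells, limit what could be measured.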
